A study of Mus musculus with 9 samples.

Results

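The Serpin genes, which encode the serpin family of protease inhibitors, were followed through mouse conjunctiva in allergic inflammation. Members were all rows whose symbol starts with Serpin, which gave 39 of the 20603 genes in the deposited count table. Of these, 16 belonged to clade B (Serpinb symbols) and 22 to the clades that are mostly secreted (letters A, C, D, E, F, G and I). The remaining gene was Serpinh1, which encodes a chaperone that stays in the endoplasmic reticulum. Clade B was divided further by gene number into 6 genes known mainly from epithelia (numbers 3, 5, 7, 11 and 12 in this table) and 10 others. After a filter on low counts 26 members could be tested, 11 of clade B, 14 secreted and Serpinh1. The other 13 had between 4 and 48 counts summed over all libraries.

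A serpin acts as bait: a protease cuts its exposed reactive loop and is then trapped in an irreversible complex. Clade B serpins lack a classical signal peptide and mostly work inside cells, where they guard epithelia and leukocytes against cathepsins, granzymes and neutrophil proteases. Secreted serpins control coagulation, fibrinolysis, complement and kinin formation in tissue fluid, and several members of the family inhibit no protease at all. The class follows the letter of the symbol and not a measured location: Serpina3g, for example, is known as an intracellular inhibitor of cathepsins despite its clade A symbol.

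RNA was sequenced from 9 libraries, each a pool of conjunctiva from 3 mice on a C57BL/6j background, in 3 groups of 3. Challenged knockouts (Vegfr3iLECko) were Vegfr3fl/fl mice that also carried Prox1CreERT2, in which a tamoxifen-inducible Cre driven by Prox1 deletes the floxed receptor gene in Prox1-expressing cells, chiefly lymphatic endothelium. Challenged controls and unchallenged controls were Vegfr3fl/fl littermates without the Cre, so all groups carried the floxed allele. All mice received 5 injections of tamoxifen (75 mg/kg) at week 5. Immunization followed at week 6, with ovalbumin (OVA, 250 µg) given together with pertussis toxin (0.3 µg) and aluminum hydroxide (5 mg). The challenge began after 14 days and was 1 OVA drop (250 µg in 5 µL) a day into the right eye for 28 days, with saline in the other eye. Whether unchallenged libraries came from the saline eyes of the same mice is not stated. Library totals were 16490050 to 24746836 counts, so that 3 counts corresponded to 0.115 to 0.186 CPM (counts scaled to library size with TMM factors). Flt4, the gene of Vegfr3, was at 7.78 ± 4.49 CPM in challenged knockouts and 17.9 ± 3.95 CPM in challenged controls (SD, n = 3), with a log2 difference of -1.20 (SE 0.40, edgeR adjusted p = 0.468). Every knockout library was below every challenged control for Flt4, while Prox1 was at 10.8 ± 3.35 CPM in challenged knockouts and 6.55 ± 1.49 CPM in challenged controls (edgeR adjusted p = 0.569).

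Challenged control 1 stood apart from the other challenged controls for many members. The summed level of 11 interferon response genes was 5561 CPM in that library, against 1104 and 3264 CPM in challenged controls 2 and 3. Their sum was 606.5, 2088 and 1494 CPM in challenged knockouts 1 to 3 and 323.5 to 599.6 CPM in unchallenged controls. The epithelial list, whose 11 markers were all detected in every group, summed to 20930 to 37140 CPM in challenged knockouts, 21150 to 33070 CPM in challenged controls and 20150 to 30870 CPM in unchallenged controls. These are bulk samples, in which fewer cells of a type and less RNA per cell cannot be told apart.

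In unchallenged controls, which were immunized like the other groups, the conjunctiva carried high levels of a few serpins from both classes. On a scale of CPM per kilobase of exon (exon lengths from GENCODE M21, matched by symbol for all 39 members), the mean in unchallenged controls was highest for Serping1 at 226 ± 46.4. Serping1 encodes C1 inhibitor, the plasma regulator of complement C1 and of kallikrein. Serpinb3a, a mouse relative of the human squamous cell carcinoma antigens that inhibit cathepsins, followed at 193 ± 63.7 CPM per kb, within the spread of Serping1. The next 6 lay close together. They were Serpinf1 (pigment epithelium-derived factor, a non-inhibitory anti-angiogenic protein) at 107 ± 32.7 and Serpinb6a at 104 ± 9.32 CPM per kb. Serpinh1 (the collagen chaperone HSP47) was at 101 ± 42.9, Serpinb5 (maspin, a non-inhibitory epithelial serpin) at 75.4 ± 2.47, Serpinb1a at 74.9 ± 11.7 and Serpinb11 at 65.3 ± 18.1 CPM per kb (SD, n = 3 for each). Their ranges over libraries overlapped one with the next in this order.

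At the low end of the tested members, Serpina3m was at 0.0351 ± 0.0315, Serpini1 (neuroserpin) at 0.203 ± 0.0466 and Serpina3f at 0.232 ± 0.215 CPM per kb in unchallenged controls. Among the 13 members too low to test were genes of several plasma serpins. Serpinc1 (antithrombin) had 42 counts over all libraries, Serpinf2 (alpha-2-antiplasmin) 30, and Serpind1 (heparin cofactor II) and Serpina10 (a factor X inhibitor) 13 each. The few hepatocyte markers in the table summed to 0.2725 to 1.062 CPM in challenged knockouts, 0.2852 to 0.6275 CPM in challenged controls and 0.42 to 1.465 CPM in unchallenged controls.

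**Figure D1:**
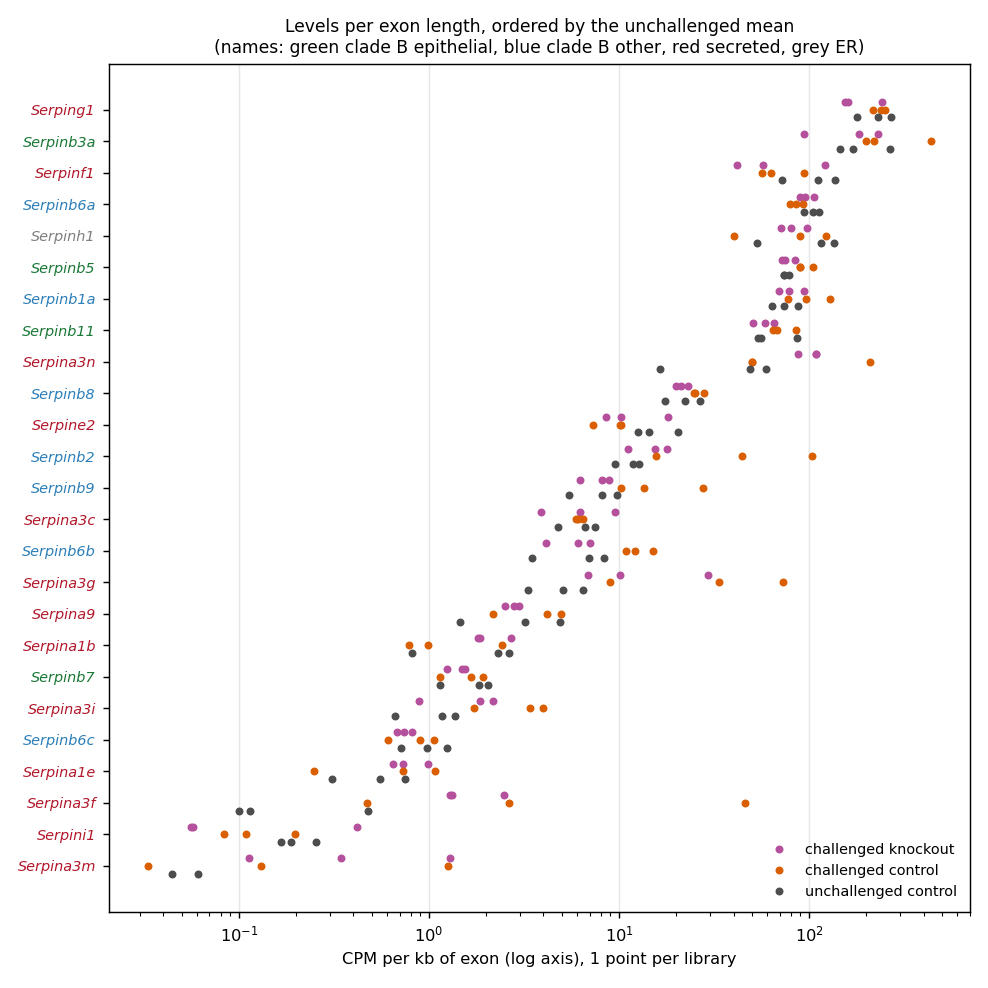
Level of 25 tested Serpin genes in CPM per kb of exon on a log axis, with 1 point per library and genes ordered by the mean in unchallenged controls. The top is shared by secreted and clade B genes, from Serping1 (226 in unchallenged controls) to Serpinb11 (65.3), and the widest spreads within challenged controls are those of Serpina3f and Serpina3m; the unchallenged control at 0 for Serpina3m cannot be shown on a log axis.

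The challenge comparison asks how ovalbumin drops altered the inhibitors in control mice. The largest log2 differences between challenged and unchallenged controls of the members described here belonged to Serpina3 genes and Serpinb2, followed by Serpinb9 and Serpinb6b. None of the 26 members passed an adjusted p of 0.05 by edgeR's quasi-likelihood test over 15613 genes, a threshold that 0.064% of all genes passed. At an unadjusted p under 0.05, 9 members were higher and 1 lower, where 6.77% of all genes were higher and 5.65% lower. DESeq2, run as an alternative, called 5 of the 26 at an adjusted p of 0.05, all higher (Serpina3f, Serpina3g, Serpina3i, Serpinb2 and Serpinb9), where it called 4.66% of all genes. The libraries of the 2 groups did not overlap for 8 members, 6 higher and 2 lower, against 7.21% of all genes higher, 8.5% lower and 15.7% in either direction. The median log2 difference was 0.33 over the 11 tested clade B genes and 0.31 over the 14 secreted ones, against -0.01 over all genes tested. Leaving out 1 library, the clade B median ran from 0.22 (without challenged control 1) to 0.40. The secreted median ran from -0.0093 (without challenged control 2) to 0.55 (without unchallenged control 3), so it rested on single libraries.

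The Serpina3 genes, which lie side by side in a mouse-expanded array on chromosome 12, are relatives of human alpha-1-antichymotrypsin. The 6 tested members may be similar enough in sequence for reads to have been split between them. This was not measured, and it leaves the value of any one of them uncertain. Their median log2 difference with challenge was 2.22 over all libraries. Without challenged control 1 the differences of Serpina3f, Serpina3g, Serpina3m and Serpina3n were all smaller. Serpina3g was at 131, 16.1 and 60.2 CPM in challenged controls 1 to 3 and at 5.97, 9.15 and 11.7 CPM in unchallenged controls 1 to 3. Every challenged control was thus above every unchallenged control, although challenged control 2 was only a little above the highest of them. The log2 difference of Serpina3g was 2.95 (SE 0.75, edgeR adjusted p = 0.135, DESeq2 adjusted p = 0.0116), and 2.10 (edgeR adjusted p = 0.336) without challenged control 1.

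Serpina3f, its neighbour, was at 105, 1.08 and 6.05 CPM in challenged controls 1 to 3 and at 1.10, 0.230 and 0.262 CPM in unchallenged controls 1 to 3. Challenged control 1 was far above all others, and challenged control 2 lay just below unchallenged control 1, so the groups overlapped. The log2 difference of Serpina3f was 6.16 (SE 1.54, edgeR adjusted p = 0.132, DESeq2 adjusted p = 0.000911). It was 2.76 without challenged control 1 (edgeR adjusted p = 0.308). With the replicate number as a block in only the 2 control groups, a fit chosen after seeing the data, it was 5.34 and passed (edgeR adjusted p = 0.0314).

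Serpina3i was low but its groups were separate, at 8.78, 3.81 and 7.47 CPM in challenged controls and 1.47, 3.02 and 2.57 CPM in unchallenged controls. Its log2 difference was 1.5 (SE 0.46, edgeR adjusted p = 0.197, DESeq2 adjusted p = 0.0302). Serpina3n, a secreted inhibitor of granzyme B in mice and an acute-phase gene, was at 429, 103 and 103 CPM in challenged controls and 122, 101 and 33.8 CPM in unchallenged controls. Its difference rested on challenged control 1: the log2 value was 1.31 (SE 0.59, edgeR adjusted p = 0.413) and 0.27 without that library. The same library had the highest summed level of 7 neutrophil markers, at 413.7 CPM against 74.85 and 25.95 CPM in challenged controls 2 and 3. In challenged knockouts 1 to 3, where Mpo was at 0, that sum was 274.4, 52.73 and 35.51 CPM, beside Serpina3n at 180, 224 and 225 CPM. In unchallenged controls 1 to 3 the sum was 97.9, 50.31 and 14.44 CPM. The part of neutrophils in the Serpina3n value was not tested. Serpina3m had 2.16, 0.224 and 0.057 CPM in challenged controls and 0.105, 0.0766 and 0 CPM in unchallenged controls. Its log2 difference was 3.57 (SE 1.49, edgeR adjusted p = 0.356) and 1.17 without challenged control 1. Serpina3c showed no such rank, with 14.2, 13.2 and 13.4 CPM in challenged controls and 14.7, 16.5 and 10.6 CPM in unchallenged controls.

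Since several Serpina3 genes were high in the same libraries, their promoters were compared (RefSeq windows on GRCm38.p6 of 250 bases before to 50 after the gene start). Such windows matched 21 of the 26 tested members, and none matched Serpina3m. The palindrome TTCNNNGAA, the core of sites that STAT factors bind, was found in 8.3% of 32851 promoter windows of this length. Among the 24 windows of tested Serpin genes it was found in 7, those of Serpina3f, Serpina3g, Serpina3i, Serpinb2 and Serpinb6a. The 2 overlapping windows of Serpina3f hold the same site, as do those of Serpinb2, so that by gene it was 5 of 21. The 8.3% is a share of windows, and no share by gene over all genes is given beside that count. Of the 5 genes with the palindrome, Serpinb6a was lower in every challenged control. The sequences below show the stretch that holds the palindrome in Serpina3g, Serpina3i and Serpina3f. For Serpina3n and Serpina3c they show the stretch aligned to it. Each is read 5′ to 3′ along the gene, with the palindrome in capitals.
Serpina3g, chr12:104236104-104236132 (+): taagttatagTTCCCAGAAatcacccggt
Serpina3i, chr12:104263010-104263038 (+): taagtgcttgTTCCCAGAAatcacccagt
Serpina3f, chr12:104214413-104214436 (+): tcagttctatTTCCTAGAAatcac
Serpina3n, chr12:104406575-104406603 (+): caaatccatgttaccagaaatcatccagt
Serpina3c, chr12:104153974-104154002 (-): taaatccatattaccagaaatcatccagt

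The palindrome began 33 bases before the annotated start in Serpina3g, 102 in Serpina3i and 121 in the first of the 2 overlapping windows of Serpina3f. Over the aligned part of the windows, identity to Serpina3g was 79.0% for both Serpina3f and Serpina3i, 67.7% for Serpina3c and 65.5% for Serpina3n. These windows share ancestry and are not independent observations. The whole window of Serpina3g, the gene of this array whose control groups were separate by the largest log2 difference, is shown with the palindrome in capitals.
Serpina3g, chr12:104235897-104236196 (+): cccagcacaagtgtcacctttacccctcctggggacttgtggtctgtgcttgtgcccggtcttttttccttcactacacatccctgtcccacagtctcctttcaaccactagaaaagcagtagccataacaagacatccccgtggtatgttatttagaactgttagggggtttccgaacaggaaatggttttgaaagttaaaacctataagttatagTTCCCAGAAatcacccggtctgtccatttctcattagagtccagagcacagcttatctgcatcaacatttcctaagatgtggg

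A related palindrome with 4 bases between TTC and GAA stood in 6.95% of all windows and in 3 of the 24 Serpin windows, 1 each of Serpina3i, Serpinb6a and Serpinb7. All 3 patterns were searched on both strands, and as the first 2 are palindromes a site on 1 strand is also a site on the other. The third pattern, GAAA followed after 2 bases by GAAA, the core of interferon-stimulated response elements, was found in 3.44% of all windows and in 2 of the 24, those of Serpinb6a and Serpinb9. In Serpinb9 it lay on the strand opposite to the gene, and the window is shown with the match in capitals.
Serpinb9, chr13:33004291-33004590 (+): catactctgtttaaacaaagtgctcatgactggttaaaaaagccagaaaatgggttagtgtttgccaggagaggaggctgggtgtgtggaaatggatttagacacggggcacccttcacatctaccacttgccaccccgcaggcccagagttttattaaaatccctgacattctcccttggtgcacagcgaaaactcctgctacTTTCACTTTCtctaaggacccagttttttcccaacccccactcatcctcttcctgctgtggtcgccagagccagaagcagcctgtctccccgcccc
A match is a description of letters, and binding at these sites was not measured.

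Within clade B, 3 genes outside the epithelial set had separate control groups and log2 differences of at least 1. Serpinb2 encodes plasminogen activator inhibitor 2, which inhibits urokinase and is made by keratinocytes and macrophages. It was at 214, 32.1 and 91.5 CPM in challenged controls 1 to 3 and at 24.3, 19.6 and 26.1 CPM in unchallenged controls 1 to 3. All challenged controls were higher, by a wide margin in libraries 1 and 3 and a narrow one in library 2. The log2 difference of Serpinb2 was 2.27 (SE 0.54, edgeR adjusted p = 0.119, DESeq2 adjusted p = 0.00069). It passed by edgeR without challenged control 2 (2.69, adjusted p = 0.0405) and was 1.41 without challenged control 1 (adjusted p = 0.223).

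Serpinb9, the intracellular inhibitor of granzyme B that protects cytotoxic cells and their neighbours, was at 96.3, 35.9 and 47.0 CPM in challenged controls and 34.2, 28.4 and 19.0 CPM in unchallenged controls. The groups were separate but adjoining, with a log2 difference of 1.13 (SE 0.36, edgeR adjusted p = 0.209, DESeq2 adjusted p = 0.0467) that was 0.61 without challenged control 1. Serpinb6b, an inhibitor of granzyme A in mice, was at 33.0, 23.8 and 26.7 CPM in challenged controls and 18.4, 15.3 and 7.66 CPM in unchallenged controls. Challenged control 1 mattered less here: the log2 difference of Serpinb6b was 1.01 (SE 0.32, edgeR adjusted p = 0.216) and 0.88 without that library. Its close relatives Serpinb6a and Serpinb6c may have shared reads with it.

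Serpinb1a, an inhibitor of neutrophil elastase and cathepsin G, was at 247, 149 and 185 CPM in challenged controls and 167, 123 and 141 CPM in unchallenged controls, with overlapping groups (log2 difference 0.43, SE 0.21, edgeR adjusted p = 0.479, and 0.22 without challenged control 1). In challenged knockouts Serpinb1a was at 149, 181 and 132 CPM, within the range of the unchallenged controls except for knockout 2. Serpinb6a went the other way by a small amount, with 159, 187 and 170 CPM in challenged controls and 225, 209 and 188 CPM in unchallenged controls (log2 difference -0.27, SE 0.14, edgeR adjusted p = 0.515). Serpinb8 had log2 differences of 0.23 (SE 0.17) with challenge, and Serpinb6c of -0.19 (SE 0.41).

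The 4 tested epithelial members of clade B differed little with challenge, with log2 differences from -0.09 for Serpinb7 to 0.56 for Serpinb3a. Serpinb5 was the steadiest of them, at 288, 247 and 247 CPM in challenged controls and 215, 204 and 203 CPM in unchallenged controls. The challenged controls were all higher, although the log2 difference of Serpinb5 was only 0.33 (SE 0.14, edgeR adjusted p = 0.361). Serpinb3a was at 716, 356 and 323 CPM in challenged controls and 433, 276 and 237 CPM in unchallenged controls. In both groups library 1 was the highest and library 3 the lowest, and the groups overlapped (log2 difference 0.56, SE 0.40, edgeR adjusted p = 0.666). Challenged control 1 carried most of the Serpinb3a difference, which was 0.11 without it. Serpinb11 was at 151 ± 23.4 CPM in challenged controls and 136 ± 37.6 CPM in unchallenged controls, and Serpinb7 at 2.98 ± 0.761 CPM in challenged controls and 3.16 ± 0.896 CPM in unchallenged controls (SD, n = 3).

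**Figure D2:**
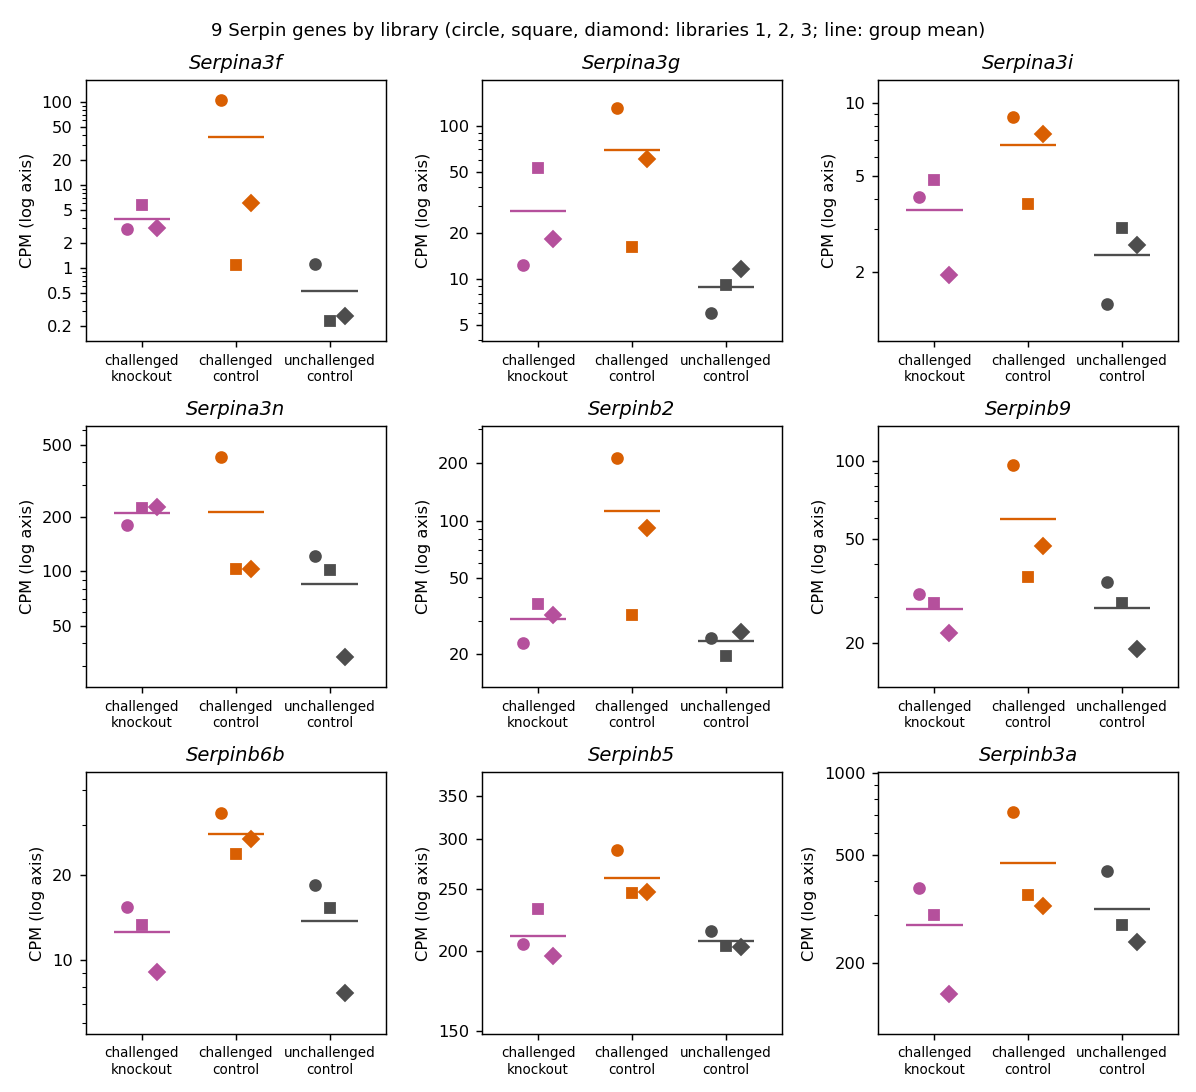
CPM on log axes for 9 Serpin genes, with 1 symbol per library and a line at the arithmetic group mean. Challenged control 1 (circle) is the highest library in all 9 panels; the challenged controls lie above all unchallenged controls for Serpina3g, Serpina3i, Serpinb2, Serpinb9, Serpinb6b and Serpinb5, and above all challenged knockouts for Serpinb9, Serpinb6b and Serpinb5.

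Among the secreted serpins outside the Serpina3 array, none that was tested was higher in all challenged controls. Serpine2, protease nexin 1, which inhibits thrombin and urokinase, was lower in every challenged control. It was at 22.5, 22.7 and 16.2 CPM in challenged controls and 31.8, 45.0 and 27.8 CPM in unchallenged controls, with a log2 difference of -0.77 (SE 0.30, edgeR adjusted p = 0.318). Serpinf1 was at 234, 111 and 80.5 CPM in challenged knockouts, 110, 183 and 122 CPM in challenged controls and 140, 265 and 217 CPM in unchallenged controls. Serpinh1 was at 237, 196 and 173 CPM in challenged knockouts, 98.7, 301 and 220 CPM in challenged controls and 129, 330 and 283 CPM in unchallenged controls. Both genes overlapped between all groups, and in both control groups library 1 was the lowest for each (log2 difference with challenge -0.58, SE 0.39, for Serpinf1 and -0.26, SE 0.41, for Serpinh1). Serping1 was at 479, 506 and 438 CPM in challenged controls and 464, 543 and 357 CPM in unchallenged controls, with a log2 difference of 0.06 (SE 0.22). The 9 fibroblast and stroma markers summed to 3705 to 9262 CPM in challenged knockouts, 7411 to 10130 CPM in challenged controls and 7520 to 12430 CPM in unchallenged controls. Skeletal muscle markers (10 of 10 detected) summed to 1995 to 3452 CPM in challenged knockouts, 286.9 to 763.5 CPM in challenged controls and 1157 to 4787 CPM in unchallenged controls. Adipocyte markers (7 of 7) summed to 33.74 to 54.83 CPM in challenged knockouts, 5.19 to 16.02 CPM in challenged controls and 21.79 to 98.48 CPM in unchallenged controls. The part of these tissues in the values of Serpine2, Serpinf1 and Serpinh1 was not tested.

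The remaining tested members of clades A and I were Serpina1b and Serpina1e (alpha-1-antitrypsin genes, whose near-identical copies may share reads), Serpina9 and Serpini1. Their log2 differences with challenge were -0.44 (SE 0.53) for Serpina1b, 0.37 (SE 0.58) for Serpina1e, 0.24 (SE 0.42) for Serpina9 and -0.65 (SE 0.79) for Serpini1. None of these 4 exceeded its own SE. Of the untested genes, Serpina10, chosen after its values were seen, had 2 counts in challenged knockouts in all, 11 in challenged controls and 0 in unchallenged controls. Its counts in challenged controls 1 to 3 were 6, 2 and 3, around the floor of 3 counts. Serpinb3d of clade B, also untested, had 20, 5 and 3 counts in challenged controls and 1, 0 and 3 in unchallenged controls.

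The genotype comparison asks whether loss of Vegfr3 in lymphatic endothelium altered the inhibitors under challenge. Clade B leaned to lower levels in challenged knockouts, with 10 of 11 tested genes at a log2 difference below 0 and a median of -0.32, where 49.6% of all genes were below 0 and the median over all genes was 0.00. The secreted serpins were divided, with 7 of 14 below 0 and a median of 0.01. No member passed by edgeR, and neither did any other gene (0% of 15613). At an unadjusted p under 0.05, 4 members were lower and 0 higher, against 4.53% of all genes lower and 3.95% higher. DESeq2 called 2 of the 26, Serpinb2 and Serpinb6b, both lower, against 1.58% of all genes. The groups did not overlap for 4 members, all lower, where 6.24% of all genes were lower and 6.7% higher without overlap. In either direction the background was 12.9%, close to the share among members. These 4, Serpinb5, Serpinb6b, Serpinb8 and Serpinb9, were all of clade B. This comparison uses the same challenged controls as the challenge comparison, so a high challenged control library raises one difference and lowers the other.

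Serpinb6b was at 15.4, 13.3 and 9.09 CPM in challenged knockouts 1 to 3, against 33.0, 23.8 and 26.7 CPM in challenged controls 1 to 3. The groups were well apart, with a log2 difference of -1.14 (SE 0.33, edgeR adjusted p = 0.376, DESeq2 adjusted p = 0.0482) that was -1.0 without challenged control 1. Serpinb9 was at 30.9, 28.4 and 21.7 CPM in challenged knockouts, against 96.3, 35.9 and 47.0 CPM in challenged controls, with a log2 difference of -1.14 (SE 0.36, edgeR adjusted p = 0.430). Without challenged control 1 the difference of Serpinb9 was -0.62.

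Serpinb2 was at 23.0, 36.8 and 32.0 CPM in challenged knockouts, against 214, 32.1 and 91.5 CPM in challenged controls. Challenged control 2 lay within the knockout range, so the groups overlapped. The log2 difference of Serpinb2 was -1.88 (SE 0.53, edgeR adjusted p = 0.376, DESeq2 adjusted p = 0.0211), and -1.02 without challenged control 1. Serpinb5 was at 205, 233 and 197 CPM in challenged knockouts, against 288, 247 and 247 CPM in challenged controls (log2 difference -0.30, SE 0.14, edgeR adjusted p = 0.609). Serpinb8, whose human counterpart inhibits furin, was at 97.5, 106 and 91.3 CPM in challenged knockouts, against 115, 113 and 128 CPM in challenged controls (log2 difference -0.28, SE 0.17, edgeR adjusted p = 0.691). Serpinb3a was at 376, 299 and 154 CPM in challenged knockouts, against 716, 356 and 323 CPM in challenged controls. Its groups overlapped through knockout 1, and the log2 difference of Serpinb3a was -0.75 (SE 0.40, edgeR adjusted p = 0.652) and -0.30 without challenged control 1.

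T cell markers were highest in the same group as the granzyme-inhibiting clade B genes. The 11 markers, none of them at 0 throughout a group, summed to 31.22 to 44.0 CPM in challenged knockouts, 105.5 to 214.4 CPM in challenged controls and 16.2 to 27.58 CPM in unchallenged controls. The 11 macrophage and monocyte markers summed to 766.9 to 1245 CPM in challenged knockouts, 975.1 to 1932 CPM in challenged controls and 719.4 to 1270 CPM in unchallenged controls. The part of these cells in the Serpinb9, Serpinb6b and Serpinb2 values was not tested.

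Serping1 was at 485, 310 and 324 CPM in challenged knockouts, against 479, 506 and 438 CPM in challenged controls, with knockouts 2 and 3 below all challenged controls and knockout 1 among them (log2 difference -0.35, SE 0.22, edgeR adjusted p = 0.703). Among the Serpina3 genes, Serpina3f was at 2.96, 5.66 and 3.03 CPM in challenged knockouts, against 105, 1.08 and 6.05 CPM in challenged controls. Its log2 difference was -3.27 (SE 1.29, edgeR adjusted p = 0.535) and 0.13 without challenged control 1. Serpina3g was at 12.4, 53.3 and 18.2 CPM in challenged knockouts, against 131, 16.1 and 60.2 CPM in challenged controls (log2 difference -1.31, SE 0.70, edgeR adjusted p = 0.657, and -0.45 without challenged control 1). Serpina3n was at 180, 224 and 225 CPM in challenged knockouts, against 429, 103 and 103 CPM in challenged controls. Its log2 difference was -0.02 (SE 0.58) and 1.02 without challenged control 1.

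**Figure D3:**
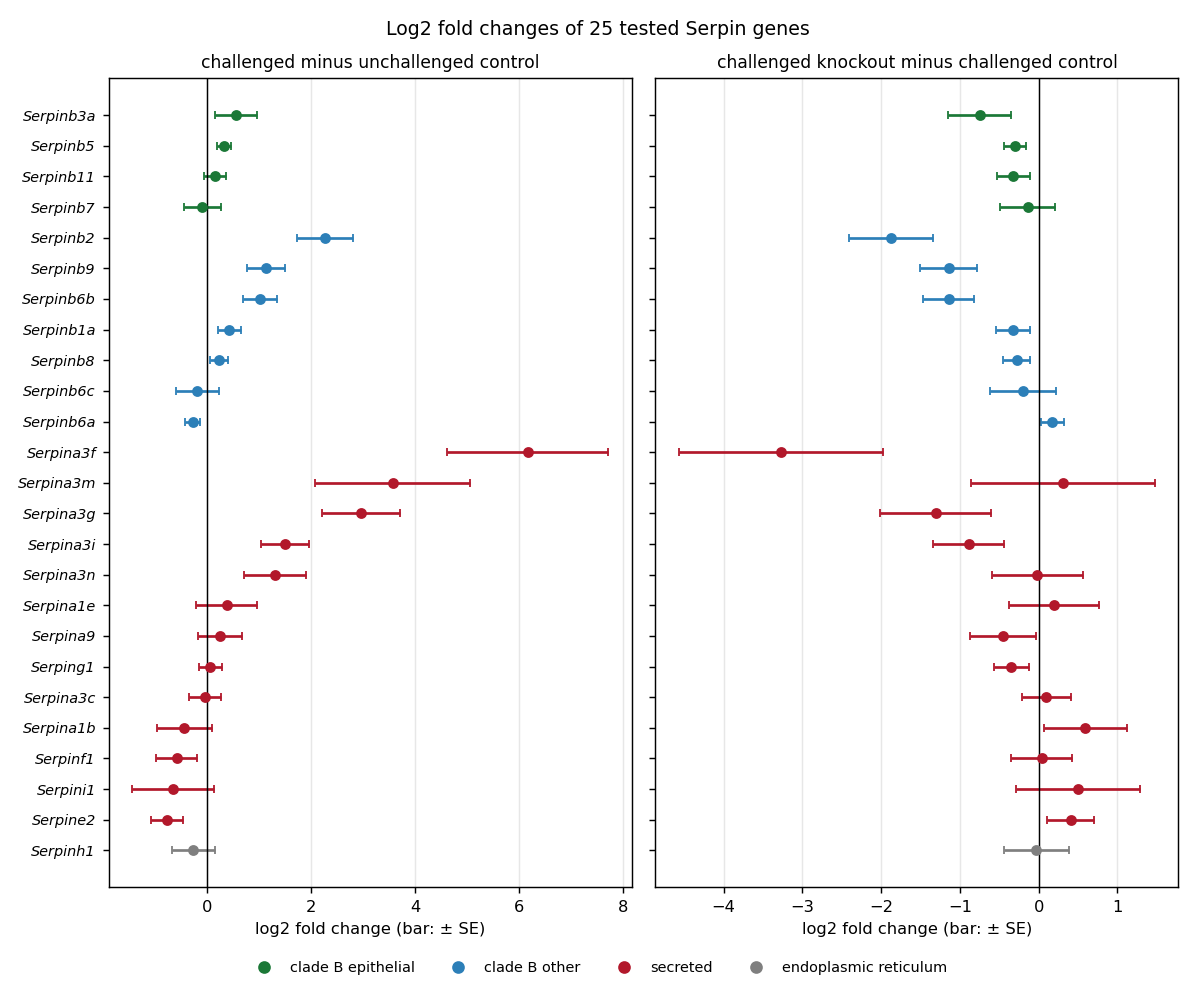
Log2 fold changes with SE of 25 tested Serpin genes for challenged minus unchallenged controls (left) and challenged knockouts minus challenged controls (right), with genes grouped by class. On the left Serpina3f (6.16) and other Serpina3 genes reach the furthest right, with Serpinb2 (2.27) the largest of clade B; on the right 10 of 11 clade B genes lie below 0, none of the 25 passed by edgeR in either panel, and the panels share the challenged controls.

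Challenged knockouts were also set against unchallenged controls. These groups differed in both challenge and genotype. With no group of unchallenged knockouts, challenge and genotype cannot be told apart in this comparison. The median log2 difference was -0.10 over the 11 clade B genes and 0.36 over the 14 secreted ones, against 0.00 over all genes, and the median over the 6 tested Serpina3 genes was 1.47. Leaving out 1 library, the clade B median ran from -0.21 to 0.10 and the secreted median from 0.07 (without challenged knockout 1) to 0.53, and the difference between the classes was not tested. No gene of the 15613 passed by edgeR (0%) and DESeq2, which called 0.089% of all genes, called 0 of the 26 members. At an unadjusted p under 0.05 in edgeR, 2 members were higher and 0 lower, against 1.25% of all genes higher and 1.65% lower. Serpina3f, Serpina3g, Serpina3m and Serpina3n were higher in every challenged knockout than in every unchallenged control, where 3.26% of all genes were higher without overlap, 3.33% lower and 6.59% in either direction. No member was lower without overlap. Serpina3n was at 180, 224 and 225 CPM in challenged knockouts, against 122, 101 and 33.8 CPM in unchallenged controls. Its knockout libraries lay close together and above all unchallenged ones (log2 difference 1.29, SE 0.59, edgeR adjusted p = 0.999). Serpina3f was at 2.96, 5.66 and 3.03 CPM in challenged knockouts, against 1.10, 0.230 and 0.262 CPM in unchallenged controls (log2 difference 2.89, SE 1.44, edgeR adjusted p = 0.999). Serpina3g was at 12.4, 53.3 and 18.2 CPM in challenged knockouts, against 5.97, 9.15 and 11.7 CPM in unchallenged controls, with knockout 1 only just above (log2 difference 1.64, SE 0.72, edgeR adjusted p = 0.999). Serpina3m was at 0.195, 0.590 and 2.23 CPM in challenged knockouts, against 0.105, 0.0766 and 0 CPM in unchallenged controls.

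No clade B gene was separate between these groups. Serpinb9 was at 27.0 ± 4.73 CPM in challenged knockouts and 27.2 ± 7.65 CPM in unchallenged controls, Serpinb6b at 12.6 ± 3.21 CPM in challenged knockouts and 13.8 ± 5.51 CPM in unchallenged controls, and Serpinb5 at 212 ± 18.7 CPM in challenged knockouts and 207 ± 6.80 CPM in unchallenged controls (SD, n = 3). Serpinb2 was at 30.6 ± 7.0 CPM in challenged knockouts and 23.4 ± 3.35 CPM in unchallenged controls. Their log2 differences were -0.01 (SE 0.35) for Serpinb9, -0.13 (SE 0.32) for Serpinb6b, 0.03 (SE 0.14) for Serpinb5 and 0.39 (SE 0.52) for Serpinb2.

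Summed over their genes, the 6 epithelial clade B genes were at 720, 656 and 459 CPM in challenged knockouts, 1187, 746 and 709 CPM in challenged controls and 832, 595 and 559 CPM in unchallenged controls. The 10 other clade B genes summed to 530, 545 and 479 CPM in challenged knockouts, 867, 542 and 650 CPM in challenged controls and 594, 477 and 486 CPM in unchallenged controls. In these sums challenged control 1 was the highest of all libraries and the others overlapped across groups. The 7 Serpina3 genes summed to 213, 309 and 259 CPM in challenged knockouts, 691, 138 and 191 CPM in challenged controls and 145, 130 and 58.8 CPM in unchallenged controls, most of it from Serpina3n. All 3 challenged knockouts were above challenged controls 2 and 3 and all unchallenged controls in that sum.

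**Figure D4:**
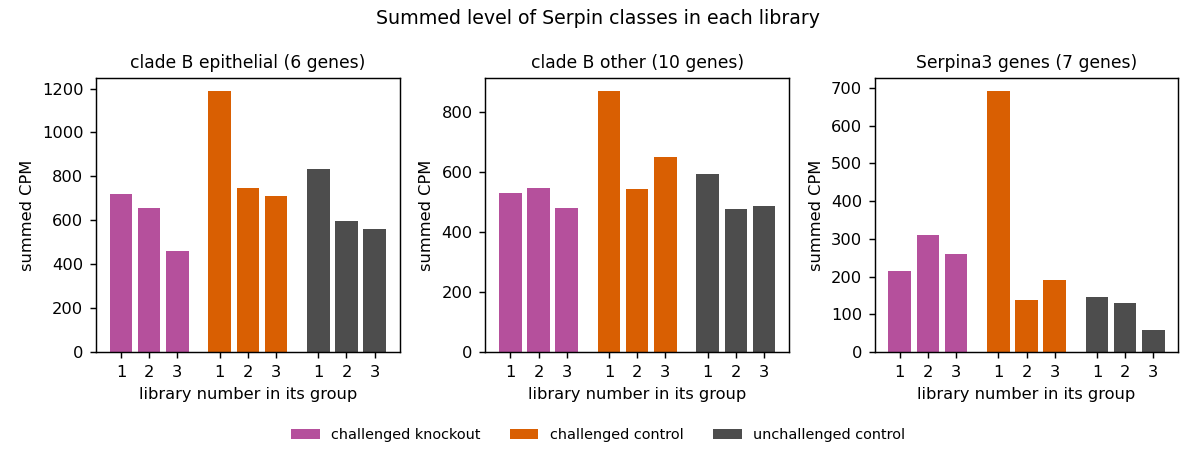
Summed CPM of the epithelial clade B genes, the other clade B genes and the Serpina3 genes in each library, with bars starting at 0 and libraries numbered within their group. Challenged control 1 is the tallest bar in each panel (1187, 867 and 691), and in the Serpina3 panel the 3 challenged knockouts (213, 309 and 259) stand above the other 5 control libraries.

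The proteases that serpins act on were read from fixed lists in the same fit. Of 8 tested granzymes and leukocyte serine proteases 1 passed with challenge, and it was higher. Gzma, granzyme A, averaged 96.2 ± 42.8 CPM in challenged controls and 2.40 ± 1.82 CPM in unchallenged controls (log2 difference 5.34, SE 0.64, edgeR adjusted p = 0.0339). The Gzma difference was 4.92 to 6.15 leaving out 1 library, and its edgeR adjusted p was 0.0271 to 0.214. It missed the threshold without challenged knockout 3, challenged control 3 or unchallenged control 2 or 3, and with only the 2 groups fitted (0.0646). Gzmb, granzyme B, the target of Serpinb9, averaged 51.7 ± 35.5 CPM in challenged controls and 1.28 ± 1.21 CPM in unchallenged controls (log2 difference 5.35, SE 0.83, edgeR adjusted p = 0.0728, and 0.0268 with the replicate block). In challenged knockouts Gzma was at 14.4 ± 8.80 and Gzmb at 11.7 ± 7.96 CPM, with no library overlap with challenged controls for either gene (log2 differences of -2.74, SE 0.56, edgeR adjusted p = 0.299 for Gzma and -2.14, SE 0.70, edgeR adjusted p = 0.448 for Gzmb). The third gene of that list by p-value was Gzmk, with a log2 difference of 5.43 with challenge (SE 1.12, edgeR adjusted p = 0.101).

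With the replicate number as a block, which called 1.71% of all genes with challenge, 0 of the 26 Serpin genes passed. Of 9 tested cathepsins 0 passed with challenge, and 2 passed with the block, both higher. They were Ctsw, a protease of cytotoxic lymphocytes (10 ± 4.25 CPM in challenged controls, 0.877 ± 0.600 CPM in unchallenged controls, blocked edgeR adjusted p = 0.0206), and Ctss, cathepsin S of antigen-presenting cells (163 ± 56.1 CPM in challenged controls, 61.0 ± 26.5 CPM in unchallenged controls, blocked edgeR adjusted p = 0.0323). Of the other lists 0 members passed in either direction, with or without the block: 0 of 12 in the plasminogen and coagulation list, 0 of 15 in the epithelial serine protease list and 0 of 16 among other protease inhibitors. The epithelial serine proteases summed to 1888 to 2139 CPM in challenged knockouts, 2210 to 3038 CPM in challenged controls and 1572 to 1922 CPM in unchallenged controls, so that their challenged controls stood above both other groups. The receptor of urokinase, Plaur, was at 9.5, 8.79 and 15.6 CPM in challenged knockouts, 73.6, 8.34 and 7.41 CPM in challenged controls and 6.38, 5.93 and 6.19 CPM in unchallenged controls. Challenged control 1 alone was far above the rest for Plaur, while challenged controls 2 and 3 were below every challenged knockout. Csta1, a cystatin inhibitor of cathepsins, averaged 81.7 ± 12.7 CPM in challenged knockouts, 137 ± 19.6 CPM in challenged controls and 78.3 ± 13.5 CPM in unchallenged controls, with challenged controls above both other groups (log2 difference with challenge 0.81, SE 0.18, edgeR adjusted p = 0.107). Timp3, of the same list of other inhibitors, went the other way. It averaged 140 ± 42.6 CPM in challenged knockouts, 108 ± 6.20 CPM in challenged controls and 201 ± 28.5 CPM in unchallenged controls. Every challenged control was below every unchallenged control for Timp3 (log2 difference -0.90, SE 0.21, edgeR adjusted p = 0.118). In the genotype comparison 0 members of these 5 lists passed, with or without the block.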

How the data were processed

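The authors deposited 1 table of raw counts per gene symbol for conjunctival messenger RNA in 9 libraries, each a pool of 3 mice. The submitters' processing notes name HISAT2, Bowtie2, DESeq2 and the build mm39. For versions, counting program, annotation and strand: not given in the sources used here. No symbol occurs more than once in the table, and every column was used. Nothing says that pools of a group came from separate litters, so p-values measure the spread between pools.

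Counts were filtered with filterByExpr, scaled with TMM and fitted over all 9 libraries with edgeR 4.0.16 (R 4.3.3) quasi-likelihood tests, two-sided, with p adjusted by Benjamini-Hochberg over 15613 genes at 0.05. The common biological coefficient of variation was 31.7%. The fit was also run on simulated counts, with gene dispersions capped below the common value of these data. That run does not show how the fit performs at the spread seen here. Alternatives were DESeq2 1.42.0, its size factors, no filter, only the groups compared, the replicate number as a block and leaving out each library. Deviations from group means correlated at 0.245 to 0.488 between same-numbered unchallenged and challenged controls. Same-numbered knockouts and challenged controls gave -0.147 to 0.339, which overlaps that range, so the correlations do not set the knockouts apart. Between same-numbered knockouts and unchallenged controls they were -0.0889 to 0.334. No such correlation was computed between differently numbered libraries, so these values do not show what a replicate number marks. No batch is stated, and the main edgeR fit took no libraries as paired. The replicate number entered only in alternative fits, as a block over all groups or over the control groups alone. Floors cover counting error only. No pair of libraries in a group agreed within sampling noise.

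The members, classes and lists were chosen with earlier results of these data known, so no p is adjusted over the members alone. Genes named from the target lists were among the 3 with the smallest challenge p of their list. Not all of these were named, and none of the epithelial serine proteases was. Serpin genes were described library by library if past the threshold or if their role is well known. The same was done if control groups or challenged groups did not overlap with a log2 difference of at least 1. Others, among them Serpina3f, Serpina3m, Serpina3c, Serpinb3a, Serpinb6a, Serpinb8 and Serpine2, were chosen after their values were seen. Promoters come from RefSeq on GRCm38.p6, another build than that of the counts, and were matched by symbol. Protein sequences were not used here. For 1 tested secreted member, included in counts, medians and sums, the gene's own values are not reported here.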

Additional observations from a re-analysis of the deposited data

How the results depend on the processing

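Under the alternatives run, no Serpin gene that passed any of them changed direction in the comparison where it passed. The replicate block changed no Serpin call. With it the edgeR adjusted p with challenge was 0.0575 for Serpinb6b (0.216 without it) and 0.0659 for Serpinb9 (0.209 without it). By genotype the blocked edgeR adjusted p of Serpinb6b was 0.0896 (0.376 without it). It was not lower for every member: for Serpina3m with challenge it was 0.365 (0.356 without the block). Genes called with challenge numbered 10 by edgeR, 770 by DESeq2, 20 with no filter, 1 with only the 2 groups, 267 with the replicate block, 476 with the block in only the control groups (chosen after seeing the data) and 0 to 121 leaving out 1 library. Serpin genes called with challenge numbered 0 by edgeR, 5 by DESeq2, 1 with the block in only the control groups (Serpina3f) and 0 to 1 leaving out 1 library (Serpinb2, without challenged control 2). Genotype calls numbered 0 by edgeR, 242 genes and 2 Serpin genes by DESeq2, and 22 genes with the block. In challenged knockouts against unchallenged controls they were 0 by edgeR and 14 genes by DESeq2. The block changed the sign of small log2 differences of Serpina3c (0.012, challenge), Serpina3n (0.36) and Serpinh1 (0.16, both genotype) and Serpinb9 (0.016, knockouts against unchallenged controls). No filter did so for Serpina3n (0.015, genotype) and Serpinb9 (0.00036), and DESeq2 for Serpinb9 (0.0032). The cause was not tested. The median of secreted genes by genotype ran between -0.52 and 0.18 leaving out 1 library, the lowest without challenged knockout 1.

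Log2 differences that crossed 0 leaving out 1 library each had these ranges. With challenge they were -0.14 to 0.77 (Serpina1e), -0.20 to 0.11 (Serpina3c), -0.10 to 0.69 (Serpina9), -0.37 to 0.018 (Serpinb6c), -0.30 to 0.095 (Serpinb7), -0.083 to 0.21 (Serping1) and -0.65 to 0.076 (Serpinh1). By genotype they were -0.20 to 0.71 (Serpina1e), -0.27 to 0.36 (Serpina3c), -3.83 to 0.13 (Serpina3f), -1.05 to 2.71 (Serpina3m), -0.34 to 1.02 (Serpina3n), -0.32 to 0.032 (Serpinb7), -0.53 to 0.32 (Serpinf1), -0.37 to 0.34 (Serpinh1) and -1.16 to 0.91 (Serpini1). In challenged knockouts against unchallenged controls they were -0.21 to 0.46 (Serpina1b), -0.30 to 0.33 (Serpina3c), -0.55 to 0.24 (Serpina9), -0.29 to 0.082 (Serpinb11), -0.024 to 0.23 (Serpinb1a), -0.48 to 0.11 (Serpinb3a), -0.041 to 0.082 (Serpinb5), -0.41 to 0.13 (Serpinb6b), -0.19 to 0.10 (Serpinb8), -0.21 to 0.19 (Serpinb9) and -1.81 to 0.26 (Serpini1). With 3 pools in a group and a spread of 31.7% between pools, the number of pools limits the precision; Serpina3m, near the floor of 0.115 to 0.186 CPM in unchallenged controls, is limited by depth too.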
